A study of Homo sapiens with 6 samples.

Results

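A set of 10 regulators of cell division was followed through heat and X-rays in A549, a long-established line from a human adenocarcinoma of the lung: AURKA, AURKB, BUB1, CCNB1, CCNF, CDC20, PTTG1, DEPDC1, CKAP2L and G2E3. They were chosen by gene symbol because earlier results of these arrays showed them at lower levels after X-irradiation, so their X-ray differences describe the choice and carry no test. All 10 had a feature on the array, among 14884 genes with a symbol. RNA was measured on 6 Affymetrix arrays, 1 per group, and no group has a replicate. All cultures first grew for 24 h at 37 °C. The untreated control received nothing further, and no later time is stated for it, so differences from this array can also hold time in culture. The radiation group (3 Gy of X-rays) was kept for 3 h at 37 °C afterwards. The heat groups spent 1 h at 41.5 °C or 44 °C and then 3 h at 37 °C. The combined groups received the 1 h of heat at 41.5 °C or 44 °C and then 3 Gy at once, and the time they were kept afterwards is not stated. X-ray differences at 41.5 °C and 44 °C, and values built on them, can therefore also hold a difference in time after treatment. Below, the control and the radiation-alone array are called the 37 °C arrays.

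Cells enter mitosis when cyclin B with CDK1 becomes active, and they leave it when the anaphase-promoting complex (APC/C), a ubiquitin ligase, has securin and cyclin B destroyed. The genes for this machinery are transcribed late in the cell cycle, from G2 into mitosis. Many of their promoters carry a CHR element (cell cycle genes homology region), which is bound by the MuvB complexes DREAM and B-MYB-MuvB-FOXM1, and CCAAT boxes, which are bound by NF-Y. DNA damage is known to lower many of these transcripts, in part through DREAM. A population with fewer cells in G2 and mitosis also holds less of this RNA, and in bulk RNA fewer such cells and less RNA per cell cannot be told apart.

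The promoters are shown first, because letters of both element types recur in most of them. RefSeq windows (build GRCh38.p14) from 250 bases before to 50 bases after the transcription start were matched for 9 of the 10 genes, all but AURKA. AURKB and PTTG1 had 2 windows each, of which the first listed was used. Letters of the CHR type were searched on both strands as 3 hexamers. The first was TTTGAA, which on the other strand reads as the hexamer TTCAAA. The second was TTTAAA, a palindrome. Another palindrome, with the letters TTCGAA, was the last. The NF-Y box was searched as CCAAT, which on the opposite strand reads as the letters ATTGG. The following stretches run 5′ to 3′ from 110 bases before to 10 bases after the start, with matches in capitals. CCNF stands for the largest difference, CCNB1 for TTTAAA, DEPDC1 and CDC20 for TTTGAA on either strand, G2E3 for a hexamer without CCAAT, and AURKB for a stretch with neither (its only CCAAT match lies farther upstream).
CCNF, chr16:2429337-2429456, plus strand: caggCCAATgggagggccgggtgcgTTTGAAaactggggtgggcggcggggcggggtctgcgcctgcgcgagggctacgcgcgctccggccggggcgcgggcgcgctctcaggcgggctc
CCNB1, chr5:69167040-69167159, plus strand: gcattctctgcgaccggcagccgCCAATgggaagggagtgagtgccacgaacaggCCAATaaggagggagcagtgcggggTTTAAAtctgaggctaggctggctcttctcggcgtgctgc
DEPDC1, chr1:68497073-68497192, minus strand: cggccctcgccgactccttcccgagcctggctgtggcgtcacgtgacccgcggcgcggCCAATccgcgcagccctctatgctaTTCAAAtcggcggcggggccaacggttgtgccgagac
CDC20, chr1:43358871-43358990, plus strand: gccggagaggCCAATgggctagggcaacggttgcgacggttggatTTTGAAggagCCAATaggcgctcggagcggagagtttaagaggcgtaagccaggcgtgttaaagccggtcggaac
G2E3, chr14:30559048-30559167, plus strand: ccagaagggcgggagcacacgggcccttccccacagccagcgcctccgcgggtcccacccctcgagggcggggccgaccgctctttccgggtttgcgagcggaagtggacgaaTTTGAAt
AURKB, chr17:8210216-8210335, minus strand: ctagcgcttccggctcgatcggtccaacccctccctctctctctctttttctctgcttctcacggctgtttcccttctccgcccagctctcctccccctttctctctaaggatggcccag

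A CHR hexamer was present in 8 of the 9 windows, all but that of AURKB, whose other window had none either. Over all 27305 RefSeq promoters of the same length the share was 25.3%. CCAAT was present in 8 of 9, all but G2E3, against 35.7% of all promoters, and both were present in 7 of 9, against 9.95%. In those 7, a CCAAT began at most 60 bases before a hexamer, an arrangement held by 2.86% of all promoters. The limit of 60 bases was set after the sequences were seen. In CCNB1 the TTTAAA starts 30 bases before the transcription start and 25 bases after the start of the nearer CCAAT. In DEPDC1 the hexamer lies 27 bases before the transcription start, also 25 bases after the start of CCAAT, and in PTTG1 it lies 29 bases before it. The nearest match upstream in PTTG1 is an ATTGG that starts 19 bases before the hexamer and overlaps a CCAAT. The TTCGAA of BUB1 begins at base 2 after the start, and in CKAP2L a TTTGAA begins 17 bases before the start. A match describes letters and shows no binding, and no match says only that the letters are not in this window.

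**Figure D1:**
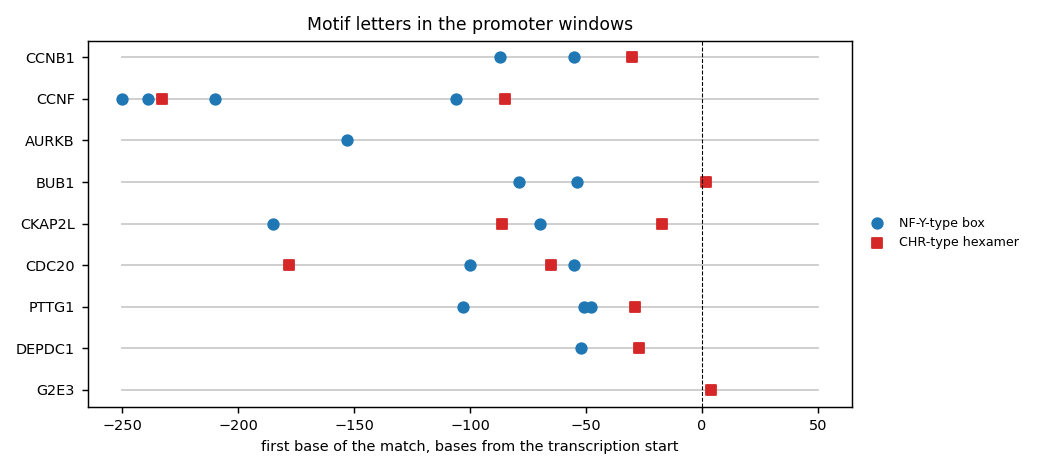
Positions of the searched motifs in 9 promoter windows. The horizontal axis gives the first base of each match in bases from the transcription start (dashed line), red squares are CHR-type hexamers and blue circles are CCAAT boxes. In 7 of the 9 genes a blue circle lies at most 60 bases before a red square.

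The other lists of cell cycle genes differed in how many windows held these letters. Of 26 further G2/M genes with a window, 24 held a hexamer and 20 held both elements. Of 11 genes around cyclin B and CDK1, 6 held a hexamer and 5 both, and of 5 partners of the Aurora kinases 3 held a hexamer and 3 both. Of 9 genes of separase and cohesin 5 held a hexamer and 3 both, and of 3 spindle checkpoint genes 2 and 1. The APC/C list was near the share of all promoters, with a hexamer in 4 of 17 and both in 1. Of 20 G1/S genes 4 held a hexamer and 3 held both, of 12 checkpoint kinases and mediators 1 and 1, and of 11 genes of DREAM and its partners 2 and 0. Among the promoters of genes on the array the shares were 20% for a hexamer and 8.13% for both.

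CCNF encodes cyclin F, the F-box subunit of a ubiquitin ligase that acts in G2. The array values of CCNF were 7.31 (log2) in the control and 6.57 after X-rays alone, 7.25 and 5.85 at 41.5 °C without and with X-rays, and 7.02 and 6.91 at 44 °C. Both irradiated arrays at 37 °C and 41.5 °C thus lay below the other 4 arrays, and the 44 °C pair lay close together. The irradiated level was 59.9% of the unirradiated level at 37 °C, 37.8% at 41.5 °C and 93.3% at 44 °C. At 41.5 °C this was the lowest but 3 of all 14884 X-ray differences (rank 4), and at 37 °C it had rank 72 from the lowest.

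CCNB1 encodes cyclin B1, the partner of CDK1 in mitotic entry. For this gene the log2 signal was 8.31 in untreated cells and 7.87 after X-rays alone, 8.34 and 7.48 at 41.5 °C, and 8.27 and 8.25 at 44 °C. The 4 arrays other than the irradiated ones at 37 °C and 41.5 °C lay within 0.1 of each other. X-rays left 73.8% of the level at 37 °C, 55.1% at 41.5 °C and 98.3% at 44 °C.

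AURKA encodes Aurora A, the kinase of centrosome maturation and spindle assembly. Measured log2 levels were 7.64 in the control and 7.30 with X-rays alone, 7.89 and 6.80 at 41.5 °C, and 7.78 and 7.91 at 44 °C. The highest array was the combined 44 °C one and the lowest the combined 41.5 °C one. X-rays left 78.8% at 37 °C and 47.2% at 41.5 °C, and at 44 °C the irradiated array stood at 109.6% of the unirradiated one.

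AURKB encodes Aurora B, the kinase of the chromosomal passenger complex, which corrects faulty attachments of chromosomes. The control stood at a log2 level of 8.91 and the radiation-alone array at 8.51, followed by 8.60 and 8.14 at 41.5 °C, and 8.79 and 8.67 at 44 °C. The 41.5 °C array without X-rays was itself 1.24-fold lower than the control, and the radiation-alone array lay just below it, so both irradiated arrays of 37 °C and 41.5 °C were still the lowest of the 6. X-rays left 76.0% at 37 °C, 72.9% at 41.5 °C and 91.7% at 44 °C.

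BUB1 encodes a kinase of the spindle assembly checkpoint that sits at kinetochores. On the log2 scale it measured 8.66 untreated and 8.33 after X-rays alone, 8.44 and 7.86 at 41.5 °C, and 8.30 and 8.42 at 44 °C. Here the 44 °C array without X-rays was also low, at 77.8% of the control, and lay below the radiation-alone array. X-rays left 79.8% at 37 °C and 66.7% at 41.5 °C.

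CKAP2L encodes a spindle-associated protein. Untreated cells had a log2 level of 7.31 and irradiated ones 6.94 at 37 °C, against 7.65 and 6.68 at 41.5 °C, and 6.95 and 7.08 at 44 °C. It was the gene of the 10 with the highest value for mild heat alone (1.27-fold above the control), and it was 1.28-fold below the control at 44 °C. X-rays left 77.7% at 37 °C and 50.9% at 41.5 °C.

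CDC20 encodes the activator of the APC/C that the spindle checkpoint holds back. The 6 arrays gave log2 levels of 8.83 in the control and 8.38 after X-rays alone, 8.97 and 8.45 at 41.5 °C, and 8.682 and 8.678 at 44 °C. It had the narrowest range of the 10 (0.59 on the log2 scale), and its 44 °C pair was nearly equal. X-rays left 73.4% at 37 °C and 69.8% at 41.5 °C.

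PTTG1 encodes securin, the inhibitor of separase. In log2 units the control had 5.19 and the radiation-alone array 5.03, with 4.96 and 4.19 at 41.5 °C, and 5.61 and 5.33 at 44 °C. It differed from the other 9: its X-ray difference at 37 °C was the smallest (89.9% left), the difference at 44 °C was larger than that (82.4% left), and heat of 44 °C alone stood 1.34-fold above the control. X-rays left 58.3% at 41.5 °C. It is the only 1 of the 10 with a mean level below the median of all genes. PTTG1 has near-identical copies elsewhere in the genome, so its signal is uncertain as that of a single gene.

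DEPDC1 encodes a DEP domain protein abundant in dividing cells. From the brighter feature, the log2 level was 7.06 without treatment and 6.55 after X-rays alone, 7.28 and 6.27 at 41.5 °C, and 6.87 and 6.99 at 44 °C. X-rays left 70.0% at 37 °C and 49.8% at 41.5 °C, and the 44 °C pair was in the opposite order. A dimmer second feature of the gene gave X-ray differences of -0.49, -0.52 and 0.18 at 37 °C, 41.5 °C and 44 °C, against -0.51, -1.01 and 0.11 for the brighter one.

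G2E3 encodes a ubiquitin ligase named for its G2/M-specific expression. Log2 levels of 7.71 in the control and 7.04 after X-rays alone were measured, with 7.82 and 7.20 at 41.5 °C, and 8.01 and 8.02 at 44 °C. Both 44 °C arrays were the highest of the 6. X-rays left 62.7% at 37 °C and 64.8% at 41.5 °C, which made G2E3 the only 1 of the 10 without a larger difference at 41.5 °C.

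**Figure D2:**
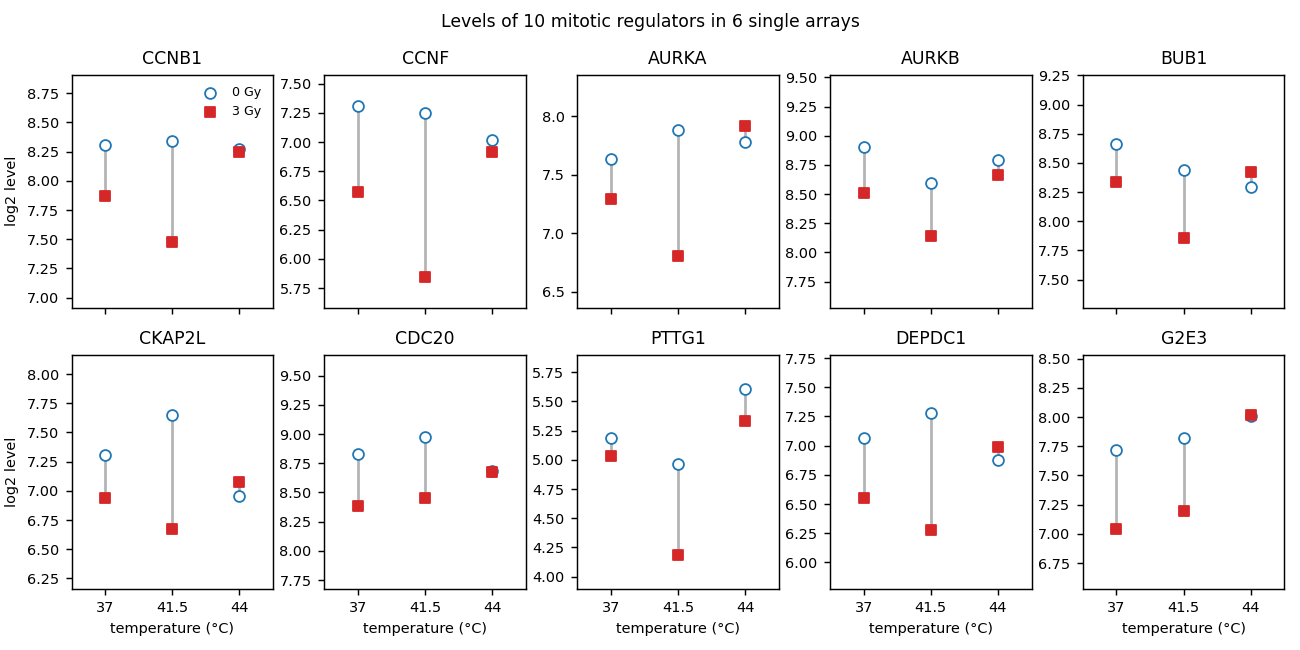
Log2 levels of the 10 genes (vertical axes, each spanning 2 log2 units) by temperature in °C, with 0 Gy as open circles and 3 Gy as red squares, 1 array per point and no error bars because no group has replicates. The grey line joining each pair is long at 41.5 °C, shorter at 37 °C for 9 of the 10, and short at 44 °C.

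Set side by side, the X-ray differences of the 10 had a median of -0.42 at 37 °C (from -0.74 to -0.15), -0.82 at 41.5 °C (from -1.40 to -0.46) and 0.0041 at 44 °C (from -0.28 to 0.13). Medians over all genes were -0.0023, -0.0017 and 0.0089. The median of the 10 at 44 °C had no stable sign, being -0.0331 after a further quantile normalization. At least 1.5-fold lower after X-rays were 2 of the 10 at 37 °C, CCNF and G2E3, where 1.48% of all genes were. At 41.5 °C it was 7 of 10 against 1.66% of all genes, BUB1 lying just short at 1.499-fold and AURKB and CDC20 being the others. At 44 °C it was 0 of 10 against 1.07% of all genes. At least 2-fold lower were 0 of 10 at 37 °C (0.0873% of all genes), 3 of 10 at 41.5 °C (0.289%), CCNF, AURKA and DEPDC1, and 0 of 10 at 44 °C (0.0537%). As the genes were chosen for this contrast, the shares describe the choice. In 8 of the 10, both irradiated arrays of 37 °C and 41.5 °C lay below the other 4 arrays, an order found in 5.17% of all genes, and the exceptions were BUB1 and PTTG1 (in PTTG1 the 41.5 °C array without X-rays and in BUB1 the 44 °C array lay lower than the radiation-alone array).

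**Figure D3:**
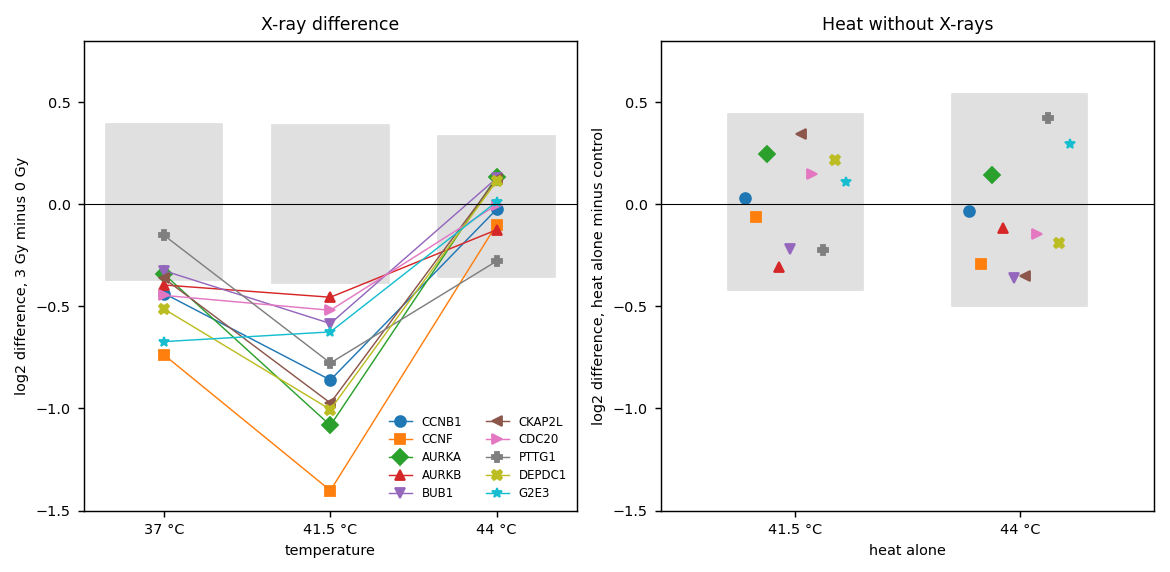
Left, log2 difference of 3 Gy minus 0 Gy at each temperature for the 10 genes (1 marker per gene, 1 pair of arrays per point). Right, log2 difference of each heat alone minus the control. Grey boxes span the 5th to 95th percentile of all 14884 genes. At 41.5 °C all 10 genes lie below the box on the left, and at 44 °C all lie inside it, as they do for heat alone.

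The combination can be read as a departure from additivity, the X-ray difference after heat minus that at 37 °C. It uses the same arrays that chose the genes, and both departures share the 37 °C pair, so it is a description. At 41.5 °C the departure was negative in 9 of 10 (49.98% of all genes), with a median of -0.46, against 0.0001 over all genes. Departures of at least 1.5-fold downward were found in 4 of the 10, AURKA (-0.74), CCNF (-0.66), PTTG1 (-0.62) and CKAP2L (-0.61), and in 4.01% of all genes. AURKB (-0.06) and CDC20 (-0.07) were near additive and G2E3 had 0.05. At 44 °C the departure was positive in 9 of 10 (7700 of 14884 genes), with a median of 0.46, against 0.01 over all genes. It reached 1.5-fold upward in 3, G2E3 (0.68), CCNF (0.64) and DEPDC1 (0.63), and in 3.22% of all genes. PTTG1 was the exception at -0.13. Set directly against the control, the combined treatment left 8 of 10 at least 1.5-fold lower at 41.5 °C (2.88% of all genes), all but CDC20 and G2E3, and 0 of 10 at 44 °C (2.54%). CCNF was lowest, at 36.3% of the control, and PTTG1 stood at 49.9%.

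Heat without X-rays gave smaller differences. At 41.5 °C the difference from the control ran from -0.31 (AURKB) to 0.34 (CKAP2L), with a median of 0.07. Above 0 were 6 of 10, where 7359 of 14884 genes were. After a further quantile normalization it was 5 of 10, as CCNB1 turned from 0.03 to -0.0052. At 44 °C the difference ran from -0.36 (BUB1) to 0.42 (PTTG1), with a median of -0.13. Below 0 were 7 of 10, against 55.9% of all genes. At least 1.5-fold lower were 0 of 10 at either temperature, against 1.85% of all genes at 41.5 °C and 3.04% at 44 °C, and at least 1.5-fold higher were 0 of 10 as well (2.27% and 4.17% of all genes). The sign was opposite at the 2 temperatures for 5 genes, among them CCNB1. These differences share the control array with the X-ray difference at 37 °C. The heat-alone difference at 41.5 °C also shares its heated array with the X-ray difference at 41.5 °C. The genes were chosen on both of those X-ray differences, so the heat-alone values are a description.

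Temperature as such was tested with limma in an additive model of all 6 arrays, which had 3 temperature levels and a radiation term, with p-values adjusted over all 14884 genes by Benjamini-Hochberg. Each estimate averages the irradiated and unirradiated array of a temperature. It therefore takes in the arrays of 37 °C and 41.5 °C on which the 10 genes were chosen, and for them the calls below are a description of the model and no independent test. Between 41.5 °C and 37 °C, 3 of 10 had an unadjusted p under 0.05 in limma, where 2545 of all 14884 genes did. At an adjusted p under 0.05, 0 of 10 passed, against 3.29% of all genes. Between 44 °C and 37 °C, 1 of 10 passed, against 6.11% of all genes in either direction and 3.57% upward: G2E3 was higher by 0.64 ± 0.15 (SE, 2 arrays per temperature, adjusted p = 0.0296 in limma), higher in both pairs. Leaving out single arrays ended it: without the control (adjusted p = 0.129 in limma), without the radiation-alone array (adjusted p = 0.340 in limma) and without the combined 44 °C array (adjusted p = 0.169 in limma).

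Between 44 °C and 41.5 °C, 3 of 10 passed, all upward, against 12.1% of all genes in either direction and 4.9% upward. PTTG1 was higher at 44 °C by 0.90 ± 0.17 (SE, 2 arrays per temperature, adjusted p = 0.00721 in limma), AURKB by 0.36 ± 0.09 (adjusted p = 0.0312 in limma) and G2E3 by 0.51 ± 0.15 (adjusted p = 0.0493 in limma), each in both pairs. The estimate includes the combined 41.5 °C array, whose low values belong to the choice of these genes: among unirradiated arrays alone the differences were 0.65, 0.19 and 0.19, and among irradiated arrays 1.14, 0.52 and 0.83. Without the combined 41.5 °C array all 3 calls were lost (adjusted p = 0.0689 for PTTG1, 0.218 for AURKB and 0.270 for G2E3 in limma). The calls of AURKB and G2E3 were also lost without the control (adjusted p = 0.0784 and 0.0884), the radiation-alone array (0.0773 and 0.0867) or the combined 44 °C array (0.290 and 0.434 in limma).

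Genes that work with the 10 were taken from lists of fixed membership, drawn up with earlier results of these arrays known. Their X-ray differences again compare pairs of single arrays and carry no test. Of 29 further G2/M genes, 27 were lower after X-rays at 37 °C (median -0.33, 4 at least 1.5-fold). At 41.5 °C 29 were lower (median -0.68, 18 at least 1.5-fold) and at 44 °C 9 were (median 0.08, 0 at least 1.5-fold). Over all genes, 50.5%, 50.3% and 47.7% were lower at these temperatures, and 1.48%, 1.66% and 1.07% at least 1.5-fold. CENPA, the centromeric histone H3, had -0.70, -1.25 and -0.03 at the 3 temperatures, and ARHGAP11A, a GTPase-activating protein, had -0.48, -1.11 and 0.08. At the other end of this list, SPAG5, a spindle protein, had -0.24, -0.21 and 0.02 and NUSAP1, a microtubule-bundling protein, had -0.03, -0.36 and 0.27.

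Of 6 partners of the Aurora kinases, the median was -0.22 at 37 °C, -0.29 at 41.5 °C and 0.09 at 44 °C. CDCA8 (borealin) and INCENP, which anchor AURKB in the passenger complex, had -1.06 and -0.71 at 41.5 °C, with CDCA8 at -0.65 and INCENP at -0.32 at 37 °C. CEP192, a centrosome scaffold, had -0.16 and -0.25, and AJUBA, a LIM protein, -0.07 and -0.08. Of 12 genes around cyclin B and CDK1, the median was -0.22, -0.39 and -0.03. PLK1, the Polo kinase of mitosis, had -0.54, -0.86 and -0.08 and WEE1, the kinase that restrains CDK1, -0.40, -0.75 and 0.05. CDK1 itself had -0.17, -0.43 and -0.0047, CCNB2 (cyclin B2) -0.12, -0.58 and -0.08, and CCNA2 (cyclin A2) -0.28, -0.65 and -0.06. ENSA, a phosphatase inhibitor (0.05 and -0.10 at 37 °C and 41.5 °C), and CKS1B, a CDK subunit (-0.01 and 0.01), were at the other end.

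Of 7 spindle checkpoint genes besides BUB1, the median was -0.19, -0.36 and -0.02. KNL1, the kinetochore platform for BUB1, had -0.52 at 37 °C and -0.36 at 41.5 °C, and TTK, the checkpoint's upstream kinase, -0.22 and -0.65. KNTC1 (-0.08 and -0.13) and BUB3, the binding partner of BUB1 (0.01 and -0.18), were smaller. Of 17 APC/C subunits and regulators, the median was -0.08, -0.06 and 0.02. At least 1.5-fold lower at 41.5 °C was 1 of 17, against 1.66% of all genes: the APC/C inhibitor FBXO5 (-0.46, -0.67 and -0.07). CDC27, a core subunit, had -0.22 and -0.30, ANAPC2 0.14 and -0.02 and ANAPC15 0.28 and 0.07 at 37 °C and 41.5 °C. Of 10 genes of separase, cohesin and the shugoshins, the median was 0.04, -0.16 and 0.14. SGO2, a protector of cohesin, had -0.50, -1.03 and 0.09 and ESPL1, the separase that securin inhibits, -0.33, -0.40 and -0.03, while SMC1A had 0.05 and 0.0040 and CDCA5 0.02 and 0.03 at 37 °C and 41.5 °C.

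The regulators of late cell cycle transcription showed smaller values. Of 12 genes of DREAM, MuvB and their partners, the median was -0.0012 at 37 °C, -0.05 at 41.5 °C and -0.06 at 44 °C. At least 1.5-fold lower were 0 of 12, against 1.48%, 1.66% and 1.07% of all genes. FOXM1, an activator of G2/M genes, had -0.26, -0.31 and 0.0050, MYBL2 (B-MYB) -0.09, 0.07 and 0.08, RBL1 (p107) -0.10, -0.27 and -0.13, RB1 0.06, 0.06 and 0.01, and LIN52 -0.03, 0.16 and -0.31. Of 14 checkpoint kinases and mediators the median was -0.09, -0.16 and 0.02, with RAD9A (-0.41 at 37 °C) and RAD1 (-0.19) lowest and RAD17 (0.13) and CHEK2 (-0.10 at 37 °C, 0.20 at 41.5 °C) highest on average. Of 25 G1/S genes the median was -0.05, -0.04 and -0.03, and 0 were 1.5-fold lower or higher at any temperature. Among all 14884 genes 220, 247 and 160 were 1.5-fold lower and 230, 245 and 112 higher. Counts of 0 in lists of this size are near those shares. CCNE1 (-0.13 and -0.31) and GINS1 (-0.09 and -0.26) were lowest and PCNA (0.36 and 0.32) and TYMS (0.06 and 0.27) highest at 37 °C and 41.5 °C.

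**Figure D4:**
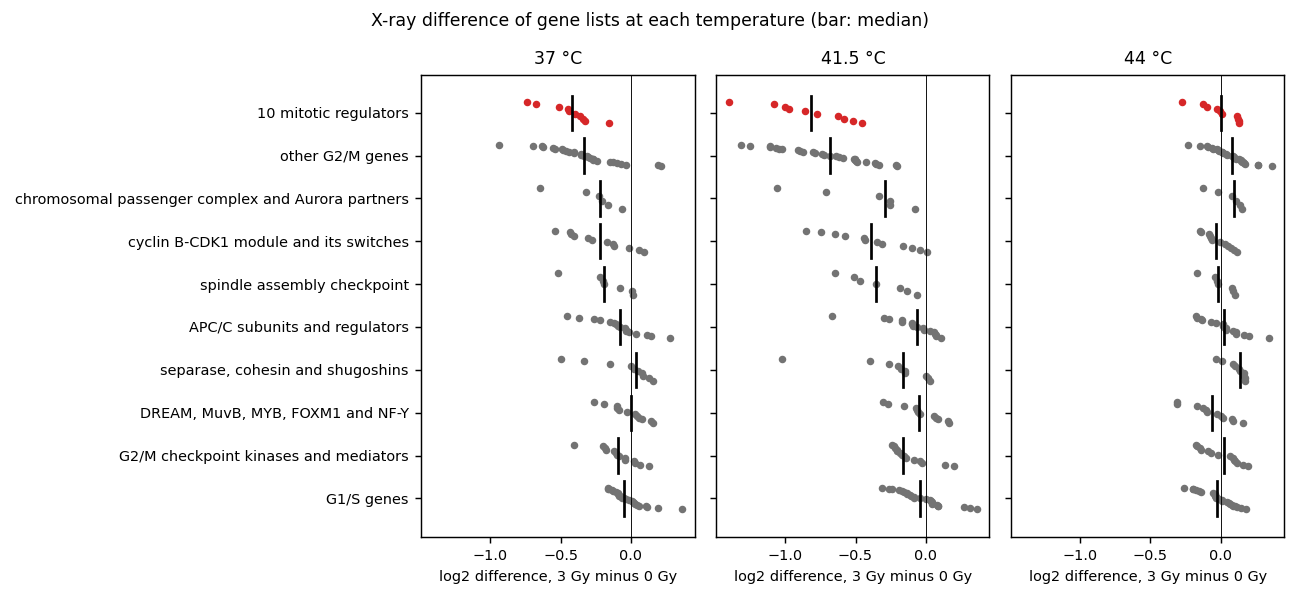
Log2 difference of 3 Gy minus 0 Gy (horizontal axis) for each gene of 10 sets at 37 °C, 41.5 °C and 44 °C, 1 point per gene and a black bar at the median. The 10 mitotic regulators (red) and the other G2/M genes lie mostly left of 0 at 37 °C and 41.5 °C, and all sets lie near 0 at 44 °C.

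The same model was read for the lists. Between 44 °C and 37 °C, where 6.11% of all genes passed and 3.57% upward, 2 of 12 genes around cyclin B and CDK1 passed, both upward. WEE1 was higher at 44 °C by 1.32 ± 0.15 (SE, 2 arrays per temperature, adjusted p = 4.9e-04 in limma), higher in both pairs, and stayed called without any 1 array (adjusted p up to 0.0445 in limma). CKS2, a small CDK subunit, was higher by 0.77 ± 0.12 (adjusted p = 0.00299 in limma), a call lost without the radiation-alone array (adjusted p = 0.124 in limma). Of 25 G1/S genes 5 passed: CCNE1 (cyclin E1) and the replication licensing factor CDC6 were higher, and the replication genes MCM3, MCM6 and MCM10 were lower. WAPL, which releases cohesin, was higher and the checkpoint kinase ATR lower. The calls of these 7 genes were lost without the control or the radiation-alone array. Of the G2/M, Aurora partner, spindle checkpoint, APC/C and DREAM lists 0 passed.

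Between 41.5 °C and 37 °C, where 3.29% of all genes passed, CDC25A, a phosphatase that activates CDKs, was higher by 0.63 ± 0.11 and AJUBA by 0.66 ± 0.09 (adjusted p = 0.0156 and 0.00571 in limma). CCND1 (cyclin D1), of the G1/S list, was higher by 0.61 ± 0.08 (adjusted p = 0.0052 in limma), and 0 genes of the other lists above passed. All 3 calls were lost without the control or the radiation-alone array, and that of CDC25A also without the 41.5 °C array (adjusted p up to 0.232 in limma).

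Between 44 °C and 41.5 °C, where 12.1% of all genes passed, 5 of the 29 further G2/M genes did. DEPDC1B, HMMR, KIF14 and PRC1 were higher at 44 °C and HJURP was lower, and each call was lost without the combined 44 °C array or, for HJURP, without the control. Of 25 G1/S genes 1 was higher and 6 were lower, and of 17 APC/C genes 3 were lower. Around cyclin B and CDK1 2 of 12 were higher and 1 was lower. Of the checkpoint kinases and mediators 2 of 14 were lower, of the Aurora partners 1 of 6 and of the DREAM list 1 of 12, and 0 passed of the separase and spindle checkpoint lists. The calls of WEE1, CKS2, CCNE1, CCND1, MCM10 and ATR were kept without any 1 array.

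Over the 6 arrays, the mean profile of the 10, each centred on its own mean, was 0.22 in the control, -0.22 after X-rays alone, 0.25 and -0.58 at 41.5 °C, and 0.16 and 0.16 at 44 °C. CCNB1 followed it most closely (Pearson r = 0.999 over 6 arrays) and CKAP2L least (r = 0.783). Among 2294 other genes above the median level with a range of at least 0.5, the 10 with the highest r were STIL (0.996), CENPA, INCENP, CDCA2, PLK1, GAS2L3, KNSTRN, HMGB2, ARHGAP11A and FNBP1 (0.956). STIL, a centriole duplication factor, had X-ray differences of -0.48, -0.73 and -0.01 at 37 °C, 41.5 °C and 44 °C, and GAS2L3, a cytoskeletal linker, -0.70, -1.31 and 0.03. KNSTRN, a kinetochore protein, had -0.36, -0.77 and 0.18, and HMGB2, a chromatin protein, -0.45, -0.76 and 0.19. FNBP1, a membrane-bending protein, had -0.15, -0.54 and -0.14. These points share 6 arrays, and r describes likeness only.

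**Figure D5:**
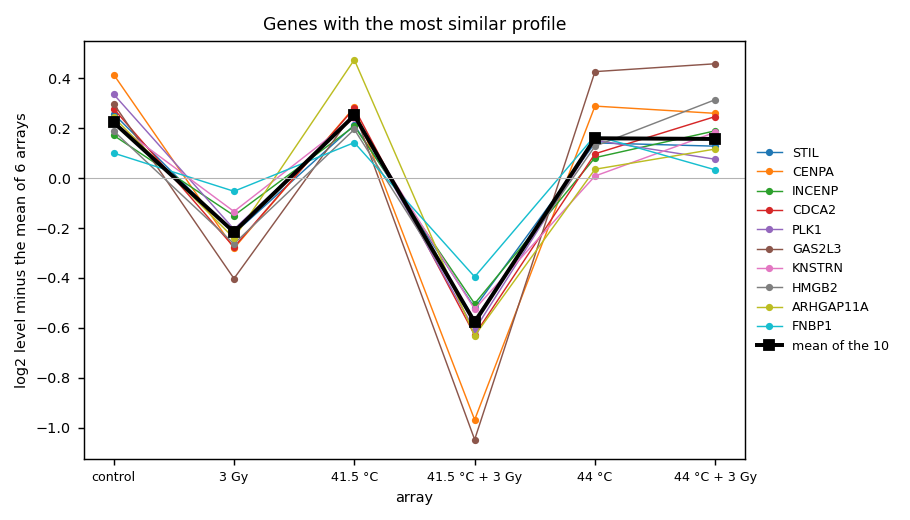
Log2 level minus the mean of the 6 arrays (vertical axis) for the mean of the 10 mitotic regulators (black) and the 10 other genes with the highest Pearson r to it, 1 array per position. All lines are lowest in the combined 41.5 °C array, where the black line is at -0.58.

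Across the arrays the epithelial markers KRT18 (log2 11.43 to 11.59), KRT8, KRT7 and EPCAM lay above the median gene in all 6, whereas the surfactant genes SFTPC and SFTPA1, NKX2-1 and KRT19 lay below it in all 6. Of 6 measured markers of other cell types, VWF, PECAM1, KDR, LYZ and DCN lay below the median gene in all 6 arrays and CD14 lay above it in 3. CD14 was higher at 44 °C than at 41.5 °C by 0.77 ± 0.13 (SE, 2 arrays per temperature, adjusted p = 0.00362 in limma), in the comparison that called PTTG1, AURKB and G2E3, and its part in that result was not tested. The summed level of the epithelial list varied from 11.66 to 11.78 on the log2 scale between arrays, that of the 3 endothelial markers from 5.10 to 5.38, and that of the 2 leukocyte markers from 5.26 to 6.01. Array medians over the 14884 genes ran from 5.38 to 5.40.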

How the data were processed

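Total RNA of 6 A549 samples was measured on Affymetrix arrays. Per the submitters' processing notes, the authors read them with Affymetrix Expression Console 1.1 and summarised them by RMA, so the deposited numbers are log2 intensities. No genome build is named in the labels. Of 53617 features, the platform annotation names 16098, and for the 779 genes with several features the one with the highest mean was used, leaving 14884 genes. Unnamed features were not analysed here. The members and lists were chosen with earlier results of these data known. One further list is not reported here.

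Differences between single arrays carry no test and were counted from 1.5-fold. Temperature was tested with limma 3.58.1 in R 4.3.3 on all 6 arrays (temperature factor plus radiation term, variances moderated with an intensity trend, two-sided). There are 2 residual degrees of freedom, which also hold any interaction, and the median residual SD was 0.113. The temperature terms use arrays on which the members were chosen. Separate cultures are not stated, so the p-values cover the scatter among these 6 arrays alone, possibly technical, and the number of arrays limits the precision. The fit was tested on simulated data with known shifts of 1 and 2 log2 units at 44 °C, without a radiation effect or an interaction. It recovered those shifts, and its share of false calls was above the nominal rate. The calls of the 10 genes were for smaller differences, which the simulation did not cover. Named genes are the 10 members, the 2 highest and 2 lowest of each list by mean X-ray difference at 37 °C and 41.5 °C, a short set of regulators, and the 10 most similar profiles. Other genes named for a call, such as CKS2 and CDC25A, were chosen after their values were seen. Alternatives were a further quantile normalization, median centring, the mean of all features, a level filter, moderation without the trend, 2-fold in place of 1.5-fold, and leaving out each array.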

Additional observations from a re-analysis of the deposited data

Results flagged for a closer look

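In 5 of the 10 genes the X-ray difference was negative at 37 °C and 41.5 °C and positive at 44 °C. At 44 °C 7747 of 14884 genes were above 0, with a median of 0.0089, so 5 of 10 is near the share of all genes. The 44 °C values were 0.13 for AURKA, 0.13 for BUB1, 0.11 for DEPDC1, 0.12 for CKAP2L and 0.0119 for G2E3 on the log2 scale. With 1 array per group this difference between temperatures was not tested. All 5 lie within the 5th to 95th percentile of all genes at 44 °C (-0.36 to 0.33). Counted from the lowest of 14884 genes, AURKA had rank 11432, BUB1 11273, CKAP2L 11172, DEPDC1 10904 and G2E3 7539. After a further quantile normalization G2E3 had -0.0317, which leaves 4 of the 10 genes above 0.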

How the results depend on the processing

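The median X-ray differences, heat-alone differences and departures of the 10 genes moved by less than the median residual SD of 0.113 under a further quantile normalization, median centring and the mean of all features. The exception was the median departure at 41.5 °C, which was -0.34 with the mean of all features. Of the recomputed differences of single genes, 206 moved by less than that SD and the other 4 belong to DEPDC1 with its dimmer feature averaged in (X-ray difference at 41.5 °C -0.76). A further quantile normalization turned the sign of 6 values near 0. These were the median of the 10 and G2E3 for X-rays at 44 °C, CCNB1 for heat alone at 41.5 °C, and the list medians of the APC/C (-0.0078) and the checkpoint kinases (-0.0066) for X-rays at 44 °C and of DREAM (0.0089) at 37 °C. At 2-fold, genes of the 10 lower after X-rays numbered 0 at 37 °C and 3 at 41.5 °C. All genes past 2-fold after X-rays were 13 lower and 27 higher at 37 °C, 43 and 30 at 41.5 °C, and 8 and 10 at 44 °C. After heat alone they were 33 and 34 at 41.5 °C and 70 and 190 at 44 °C. With genes below the median level left out, 7442 genes and 9 of the 10 were kept. At least 1.5-fold lower after X-rays were then 46 (0.618%) at 37 °C, 66 (0.887%) at 41.5 °C and 15 (0.202%) at 44 °C. These shares are smaller than the 1.48%, 1.66% and 1.07% over all genes. Higher were 37, 61 and 13. For heat alone 78 were lower and 140 higher at 41.5 °C, and 181 and 266 at 44 °C.

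The temperature calls depended on the setting. Between 41.5 °C and 37 °C a further quantile normalization called 1 of the 10. Without the intensity trend 0 were called between 44 °C and 37 °C and 1 between 44 °C and 41.5 °C. Leaving out 1 array leaves a temperature with 1 array. It changed the number of calls among the 10 in every comparison, with more called without some arrays and fewer without others. Calls over all genes in these settings are not given here, so the changes describe the model and not the 10 genes. Median centring ended the call of G2E3 between 44 °C and 41.5 °C (adjusted p = 0.0551 in limma). No paired analysis was possible because each group holds 1 array and the labels give no replicate numbers. With 1 array per group no difference has an error of its own. The residual SD of the 10 genes in the model, which also holds any interaction, ran from 0.124 (AURKB) to 0.460 (CCNF) for 1 array, and a difference of single arrays varies more than that.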
